A study of Homo sapiens with 4 samples.

Results

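The genes described here write, erase and read N6-methyladenosine (m6A), a methyl mark on adenosines of mRNA. They are 10 genes picked by symbol for their roles in this pathway, by a rule that uses no measured value, and all 10 were found among the 60671 rows of the expression table. The writers were METTL3, METTL14 and WTAP, the erasers were FTO and ALKBH5, and the readers were YTHDF1, YTHDF2, YTHDF3, YTHDC1 and IGF2BP1. A mean level of 1 TPM or more over the libraries was reached by 9 of them, which belonged to the 12319 genes that were tested. TPM, a unit of transcripts scaled to one library total, gives the share of a gene among all transcripts, corrected for transcript length. METTL14 lay below that level and is reported by its values and by a fit without the filter.

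Poly(A)-selected RNA was sequenced from 4 libraries of H9, an established human embryonic stem cell line grown in mTeSR medium without treatment. The 2 control libraries are labelled control H9. The study's text sets RNA-seq of the re-expressing cells against mock control cells, clones that had received the CRISPR vector without a guide. A figure legend of the study calls the compared cells mock (m+OE) and CFIm25 (m+OE), with m for mutant and OE for overexpression. The labels do not say whether the control libraries came from mock clones, from parental H9 or from the cells named in that legend. The 2 other libraries, called KO+OE here, are labelled CFIm25 KO with 3Flag-CFIm25 overexpression. Their cells came from a single-cell clone in which CRISPR/Cas9 had changed the start of the coding sequence of CFIm25, and which then received a lentiviral 3Flag-tagged CFIm25 under the EF1 promoter; the edit left a shortened protein at a low level, and the series title calls it a knockdown. CFIm25, the product of NUDT21, is a subunit of the cleavage factor that binds pre-mRNA upstream of the polyadenylation site. The comparison asked whether RNA levels in the re-expressing line differed from control. Edited cells without re-expression were not analysed here. Nothing in the labels says that replicates were separate cultures, so p-values measure only the spread between these libraries.

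The mark is set in the nucleus by a heterodimer in which METTL3 is the catalytic subunit and METTL14 holds the RNA, and WTAP anchors the pair to a larger complex. FTO and ALKBH5 are oxygenases that can take the methyl group off again. Proteins with a YTH domain bind the methylated adenosine directly, in the nucleus (YTHDC1) or in the cytoplasm (the YTHDF proteins), while the IGF2BP proteins are known for stabilising marked mRNAs. In embryonic stem cells the mark is known to shorten the life of transcripts of pluripotency factors, and cells without METTL3 leave the pluripotent state poorly. VIRMA, the scaffold of the writer complex, is known to associate with CFIm25 and its partner CPSF6, a link that was not tested here.

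The members differed in base composition, and stretches of their coding sequences are shown because RNA level and GC content ran in parallel among them, as described further on. Each stretch holds 90 bases, 5′ to 3′ on the sense strand, and is the first in-frame window whose GC content comes nearest to that of the whole coding sequence of the canonical GENCODE transcript; G and C are in capitals. METTL14 (coding bases 115 to 204) had 42.5% GC in its coding sequence, YTHDC1 (349 to 438) had 44.4%, METTL3 (172 to 261) had 50.4% and ALKBH5 (148 to 237) had 63.4%.
METTL14: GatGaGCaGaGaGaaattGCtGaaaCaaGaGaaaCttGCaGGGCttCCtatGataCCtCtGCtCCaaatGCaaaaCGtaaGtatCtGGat
YTHDC1: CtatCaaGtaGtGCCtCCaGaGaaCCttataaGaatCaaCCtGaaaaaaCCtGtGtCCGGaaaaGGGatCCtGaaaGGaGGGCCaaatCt
METTL3: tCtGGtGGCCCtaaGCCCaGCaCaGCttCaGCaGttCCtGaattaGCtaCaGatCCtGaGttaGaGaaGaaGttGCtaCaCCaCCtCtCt
ALKBH5: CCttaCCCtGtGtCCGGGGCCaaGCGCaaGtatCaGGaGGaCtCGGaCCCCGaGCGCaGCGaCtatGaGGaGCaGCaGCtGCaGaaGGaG

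Paralogs can exchange reads where their transcripts are identical, so the longest identical run was located for chosen pairs of genes. It was 20 bases for YTHDF1 and YTHDF2, 22 bases for IGF2BP1 and IGF2BP2, 21 bases for IGF2BP1 and IGF2BP3, 17 bases for YTHDF3 with either of the other YTHDF genes, and 12 bases for METTL3 and METTL14. All of these runs are far shorter than the reads of 150 bases. IGF2BP2 was not compared with IGF2BP3, nor YTHDC1 with YTHDC2. The runs of the closest YTHDF and IGF2BP pairs among those compared are shown in capitals. They have 12 bases on either side, to let the flanking mismatches be seen.
YTHDF1: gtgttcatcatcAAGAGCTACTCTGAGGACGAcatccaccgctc
YTHDF2: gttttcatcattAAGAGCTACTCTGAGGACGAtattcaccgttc
IGF2BP1: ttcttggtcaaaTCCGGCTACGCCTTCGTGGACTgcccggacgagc
IGF2BP2: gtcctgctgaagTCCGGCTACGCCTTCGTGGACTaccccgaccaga

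METTL3 and METTL14 encode the subunits of one enzyme but had RNA levels at the opposite ends of the list, so their promoters are shown. These are RefSeq sequences of GRCh38.p14 from 250 bases before to 50 bases after the start of the gene, chr14:21511291-21511590 on the minus strand for METTL3 and chr4:118685142-118685441 on the plus strand for METTL14, with each CG dinucleotide in capitals. CG, which reads the same on both strands, occurred 17 times in the METTL3 window and 13 times in the METTL14 window. Over the 8 of 10 members matched in the promoter table the number ran from 13 to 50. The median over 35116 promoters of the same length was 14, and 96.0% of them held at least 1.
METTL3: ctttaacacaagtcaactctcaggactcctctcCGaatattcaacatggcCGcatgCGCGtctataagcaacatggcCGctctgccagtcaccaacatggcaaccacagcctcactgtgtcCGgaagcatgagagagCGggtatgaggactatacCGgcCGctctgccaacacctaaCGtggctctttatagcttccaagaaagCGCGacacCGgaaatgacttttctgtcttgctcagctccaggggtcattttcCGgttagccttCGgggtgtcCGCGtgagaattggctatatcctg
METTL14: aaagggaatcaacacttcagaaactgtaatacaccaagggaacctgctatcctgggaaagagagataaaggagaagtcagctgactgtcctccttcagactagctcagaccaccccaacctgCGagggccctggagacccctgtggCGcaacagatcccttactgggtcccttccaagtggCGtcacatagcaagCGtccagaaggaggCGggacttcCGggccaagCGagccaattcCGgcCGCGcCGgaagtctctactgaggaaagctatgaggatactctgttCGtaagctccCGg

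Values summed to between 986853 and 987078 per library, and sequencing depth is unknown because no counts were given. Mitochondrial transcripts took 21.0% and 21.1% in control and 21.6% and 22.1% in KO+OE, higher in both KO+OE libraries, and the part of this in the results was not tested. The 6 pluripotency markers summed to 3067 to 3074 TPM in control and 3043 to 3068 TPM in KO+OE. Most of this sum was POU5F1, at 2163.82 to 2212.38 TPM over the libraries. NANOG, the lowest of the 6 by mean, was at 15.85 to 19.89 TPM. Of 16 markers of endoderm, mesoderm, ectoderm and fibroblasts, 13 had a mean under 1 TPM, with SOX17 and LUM at 0 in all libraries. The exceptions were TUBB3, COL1A1 and GATA6. The endoderm list, led by GATA6, summed to 6.2 to 8.57 TPM in control and 4.62 to 7.52 TPM in KO+OE, the ectoderm list to 95.19 to 95.80 and 93.46 to 95.21 TPM, the fibroblast list to 54.24 to 55.60 and 53.96 to 54.30 TPM, and the mesoderm list to 0.63 to 0.69 and 0.38 to 0.70 TPM. NUDT21, the edited and re-expressed gene, was measured at 160.67 and 152.20 TPM for control and 162.09 and 156.60 TPM for KO+OE. The groups overlapped, with a log2 difference of 0.03 (95% confidence interval -0.09 to 0.14, limma adjusted p = 0.980). The re-expressed coding sequence can add to this level, so these values do not check the labels.

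No member passed the test between the groups. For WTAP, YTHDC1 and YTHDF3 the lack of a call says little by itself, and their intervals, described below, say more. In simulated data with 200 changed genes the test recovered 4.76% of 2-fold changes in genes under 10 TPM, where their means lay. For genes of at least 10 TPM it recovered 82.9%. With fewer changed genes the cut-off is stricter, so these shares do not give the recovery of a lone changed member. Among the 9 tested members, 0 passed an adjusted p of 0.05 in limma and 0 passed an unadjusted p of 0.05. Over all genes tested, the respective shares were 0.00812% (1 gene) and 5.33% (656 genes). The log2 differences of the 9 members, on the scale log2(TPM + 1), ran from -0.10 for WTAP to 0.13 for YTHDF3, with 4 above and 5 below 0. Their median was -0.01, and that of all genes tested was also -0.01. The 95% confidence interval for TPM + 1 lay within 1.5-fold in either direction for all 9, and for 71.0% of all genes tested. For members near 1 TPM, such as YTHDF3, larger changes of TPM itself lie inside that interval. The groups did not overlap for WTAP (lower in KO+OE) and YTHDF3 (higher in KO+OE), that is for 2 of the 9, against 34.1% of all genes tested.

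**Figure D1:**
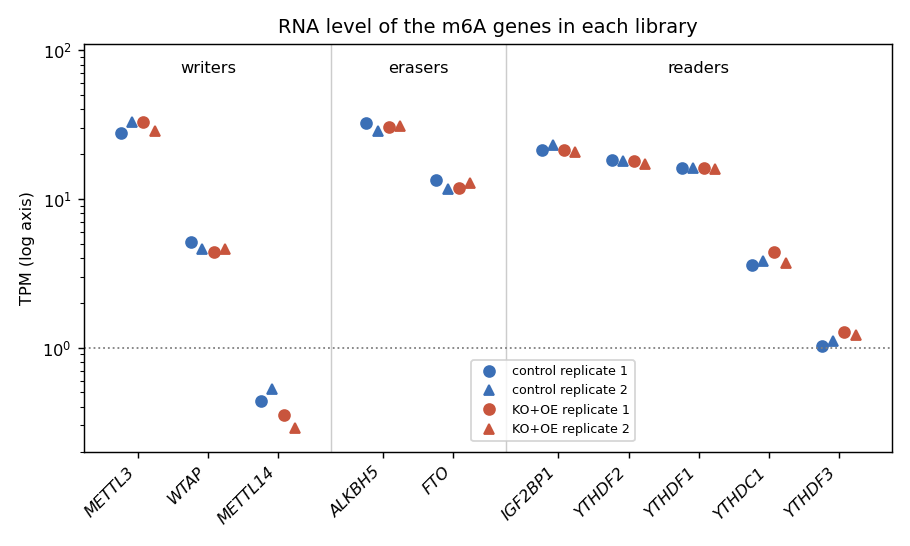
TPM of the 10 m6A genes on a log axis, 1 point per library (blue, control; red, KO+OE; circles, replicate 1; triangles, replicate 2), ordered by role and level. The highest and lowest library differ from 1.02-fold (YTHDF1) to 1.83-fold (METTL14) within a gene, while the genes span from 0.29 TPM (METTL14) to 32.79 TPM (METTL3); the dotted line marks 1 TPM, the filter for testing.

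Of the writers, METTL3 (minus strand of chromosome 14, 21498138 to 21511340 in RefSeq GRCh38.p14) was the most abundant. It was present at 27.73 and 32.75 TPM among control libraries, against 32.79 and 28.66 TPM among those of KO+OE. A high and a low library stood in each group, so the groups overlapped fully. The log2 difference was 0.02 (95% confidence interval -0.26 to 0.30, limma adjusted p = 0.990), and its sign turned when control replicate 1 (-0.09) or KO+OE replicate 1 (-0.07) was left out. METTL3 shares 388 exon bases, 6.62% of its exons, with TOX4 on the opposite strand, which was at 17.19 to 22.63 TPM, highest in KO+OE replicate 1. Since counting by strand is not stated, reads from this overlap cannot be assigned to either gene.

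METTL14, the RNA-binding partner of METTL3 (plus strand of chromosome 4, 118685392 to 118715430), was the lowest member. It was measured at 0.44 and 0.53 TPM for control and 0.35 and 0.29 TPM for KO+OE. Both KO+OE libraries thus lay below both control libraries. In the fit without a filter, over 26942 genes, the log2 difference was -0.17 (95% confidence interval -0.45 to 0.11), with an unadjusted p = 0.164 and an adjusted p = 0.873 from limma. A pseudocount of 1 exceeds the level of this gene and compresses the difference, which was -0.48 with a pseudocount of 0.1 (adjusted p = 0.852) and -0.04 with a pseudocount of 5 (adjusted p = 0.881). METTL14-DT, the divergent transcript that starts beside it, was listed at 0 in 3 libraries and at 0.06 TPM in KO+OE replicate 1.

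The pair was also compared as a ratio within each library. METTL3 RNA exceeded METTL14 RNA 63.0-fold and 61.8-fold in the control libraries and 93.7-fold and 98.8-fold in the KO+OE libraries. The ratios of the groups did not overlap, and the METTL14 values set this, since METTL3 overlapped between the groups. The mean log2 ratio was 5.96 in control and 6.59 in KO+OE, a difference of 0.62 beside a within-group SD of 0.04. METTL3 and METTL14 were higher in the same library of each group, which narrows this SD. METTL14 lay below the filter, at 0.29 to 0.53 TPM, where small absolute changes move the ratio. The exact two-sided permutation test gave p = 0.333, the smallest value that 2 against 2 libraries allow. With 1 TPM added to both genes first, the difference was 0.19 beside a within-group SD of 0.09.

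WTAP, the adaptor of the writer complex (plus strand of chromosome 6, 159726693 to 159756319), lay between them. It was present at 5.14 and 4.60 TPM among control libraries, against 4.37 and 4.57 TPM among those of KO+OE. The groups did not overlap, though control replicate 2 lay close to KO+OE replicate 2. The log2 difference was -0.10 (95% confidence interval -0.41 to 0.21, limma adjusted p = 0.965), and became -0.03 without control replicate 1 and -0.17 without control replicate 2. WTAP shares 437 exon bases, 6.81% of its exons, with the antisense gene SOD2, which was at 13.47 to 15.66 TPM. Its pseudogene WTAPP1 was measured at 0.44 and 0.59 TPM for control and 0.14 and 0.15 TPM for KO+OE, lower in both KO+OE libraries, with an unadjusted p = 0.0134 and an adjusted p = 0.873 in the limma fit without a filter. How reads were shared between WTAP and its pseudogene is not stated, so the latter value is uncertain. The 3 writers summed to 33.3 to 37.9 TPM over the libraries, most of it METTL3.

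The erasers were both readily detected and did not separate the groups. ALKBH5, a nuclear demethylase (plus strand of chromosome 17, 18183828 to 18209954), was present at 32.21 and 28.68 TPM among control libraries, against 30.28 and 30.76 TPM among those of KO+OE. The KO+OE values fell between the control values. The log2 difference was 0.01 (95% confidence interval -0.19 to 0.20, limma adjusted p = 0.994), and became -0.08 on leaving out control replicate 2 and 0.09 on leaving out control replicate 1.

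FTO, a demethylase of m6A and of related marks near the cap (plus strand of chromosome 16, 53703963 to 54121941), was measured at 13.30 and 11.60 TPM for control and 11.76 and 12.72 TPM for KO+OE. Its KO+OE values also fell between the control values, and the log2 difference was -0.02 (95% confidence interval -0.28 to 0.24, limma adjusted p = 0.990; -0.11 without control replicate 2 and 0.07 without control replicate 1). ALKBH5 RNA stood 2.42 to 2.57 times above FTO RNA in every library. The processed pseudogene FTOP1 was listed at 0 throughout.

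Among the cytoplasmic readers, YTHDF1 and YTHDF2 had nearly equal and tightly replicated levels. YTHDF1 (minus strand of chromosome 20, 63195429 to 63216131) was present at 16.02 and 16.05 TPM among control libraries, against 16.02 and 15.81 TPM among those of KO+OE, so its highest and lowest libraries differed 1.02-fold. The log2 difference was -0.01 (95% confidence interval -0.19 to 0.16, limma adjusted p = 0.990), and rescaling by median ratios turned it to 0.0019 and quantile normalization to 0.0038. YTHDF2, the reader that hands marked mRNAs to deadenylation (plus strand of chromosome 1, 28736624 to 28769775), was measured at 18.23 and 17.89 TPM for control and 18.04 and 17.21 TPM for KO+OE. The groups overlapped, and the log2 difference was -0.03 (95% confidence interval -0.21 to 0.14, limma adjusted p = 0.988). It became -0.07 on leaving out KO+OE replicate 1 and -0.0015 on leaving out KO+OE replicate 2. YTHDF2 shares 920 exon bases, 24.7% of its exons, with an antisense noncoding RNA that had no row in the expression table.

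YTHDF3, the other paralog, was an order of magnitude rarer. It was present at 1.02 and 1.10 TPM among control libraries, against 1.28 and 1.22 TPM among those of KO+OE. Both KO+OE libraries lay above both control libraries, yet the log2 difference of 0.13 had a 95% confidence interval of -0.32 to 0.58 (limma adjusted p = 0.974). Of the summed TPM of the YTHDF paralogs, YTHDF2 took 50.3% to 51.7%, YTHDF1 45.3% to 46.2% and YTHDF3 2.89% to 3.62%. The antisense row YTHDF3-AS1 was measured at 0.88 and 1.33 TPM for control and 1.64 and 1.22 TPM for KO+OE, about the level of YTHDF3 itself, and its annotated exons share no bases with those of YTHDF3. The pseudogene rows YTHDF1P1 and YTHDF2P1 were at 0 throughout.

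**Figure D2:**
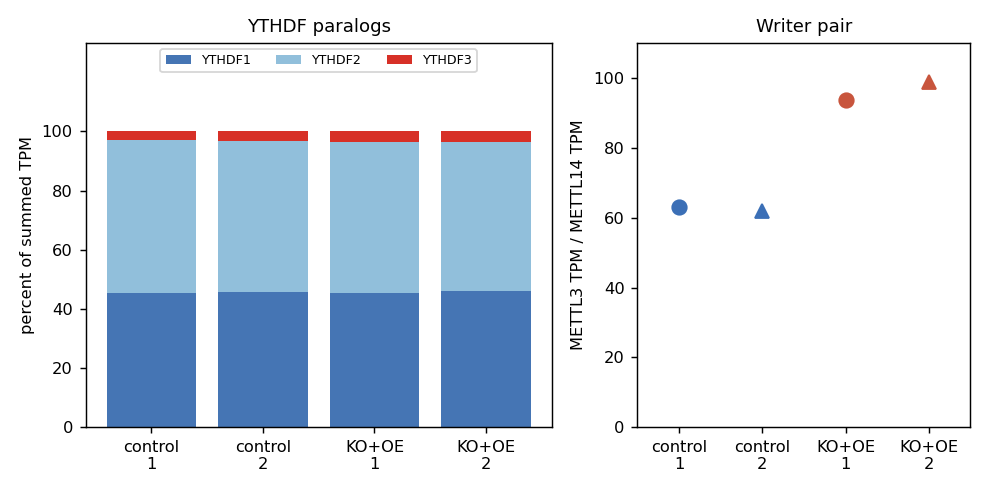
Left, share of each YTHDF paralog in their summed TPM, 1 stacked bar per library; right, TPM of METTL3 divided by TPM of METTL14, 1 point per library. The shares of YTHDF1 and YTHDF2 stayed between 45.3% and 51.7%, while the METTL3 to METTL14 ratio was 61.8 and 63.0 in control and 93.7 and 98.8 in KO+OE.

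YTHDC1, the nuclear reader that acts in splicing and export (minus strand of chromosome 4, 68310387 to 68350090), was present at 3.59 and 3.82 TPM among control libraries, against 4.37 and 3.70 TPM among those of KO+OE. A single library, KO+OE replicate 1, stood above the others. The log2 difference was 0.10 (95% confidence interval -0.25 to 0.44, limma adjusted p = 0.974), 0.19 when the lower KO+OE library was left out and -0.0011 when the higher one was.

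IGF2BP1, an oncofetal RNA-binding protein (chromosome 17, 48996558 to 49056145), was measured at 21.27 and 23.03 TPM for control and 21.47 and 20.67 TPM for KO+OE. The groups overlapped, and the log2 difference was -0.07 (95% confidence interval -0.25 to 0.12, limma adjusted p = 0.960). The difference became -0.12 without control replicate 1 and -0.01 without control replicate 2. IGF2BP1 shared the lead of its family with IGF2BP2. IGF2BP1 took 42.3% to 46.7% of the summed TPM of the IGF2BP genes, IGF2BP2 41.8% to 46.1% and IGF2BP3 10.4% to 11.7%. The 5 readers together summed to 58.6 to 61.9 TPM, against 40.3 to 45.5 TPM for the 2 erasers.

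In order of mean level the members ran ALKBH5, METTL3, IGF2BP1, YTHDF2, YTHDF1, FTO, WTAP, YTHDC1, YTHDF3 and METTL14. ALKBH5 and METTL3 had the same mean of 30.5 TPM and each was higher in 2 of 4 libraries, so they do not differ beyond their spread. The ranges of WTAP and YTHDC1 met at 4.37 TPM. All other neighbours had ranges over the 4 libraries that did not overlap, with the narrowest step, 1.12-fold, between YTHDF2 and YTHDF1. Among the 12319 genes tested, ALKBH5 and METTL3 lay at the 76.8th percentile of mean level, WTAP at the 38.4th and YTHDF3 at the 3.70th.

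What could be seen was set by the spread between replicates, which the fit pools over genes of similar level. The interval of a gene therefore does not follow its own SD alone. The within-group SD of log2(TPM + 1) ran among the tested members from 0.01 for YTHDF1 to 0.15 for METTL3, beside a median of 0.09 for all genes of 5 to 50 TPM and 0.17 for those of 1 to 5 TPM. YTHDF3 had the widest interval of the tested members, though its own within-group SD was 0.03. A rise of its TPM + 1 of up to 1.49-fold lay inside that interval. At about 1 TPM this corresponds to a larger rise of TPM itself, and the log2 difference of YTHDF3 was 0.22 with a pseudocount of 0.1. The intervals of YTHDF1 and ALKBH5, where the added 1 TPM weighs little, held no change of TPM + 1 beyond 1.14-fold and 1.15-fold in either direction.

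**Figure D3:**
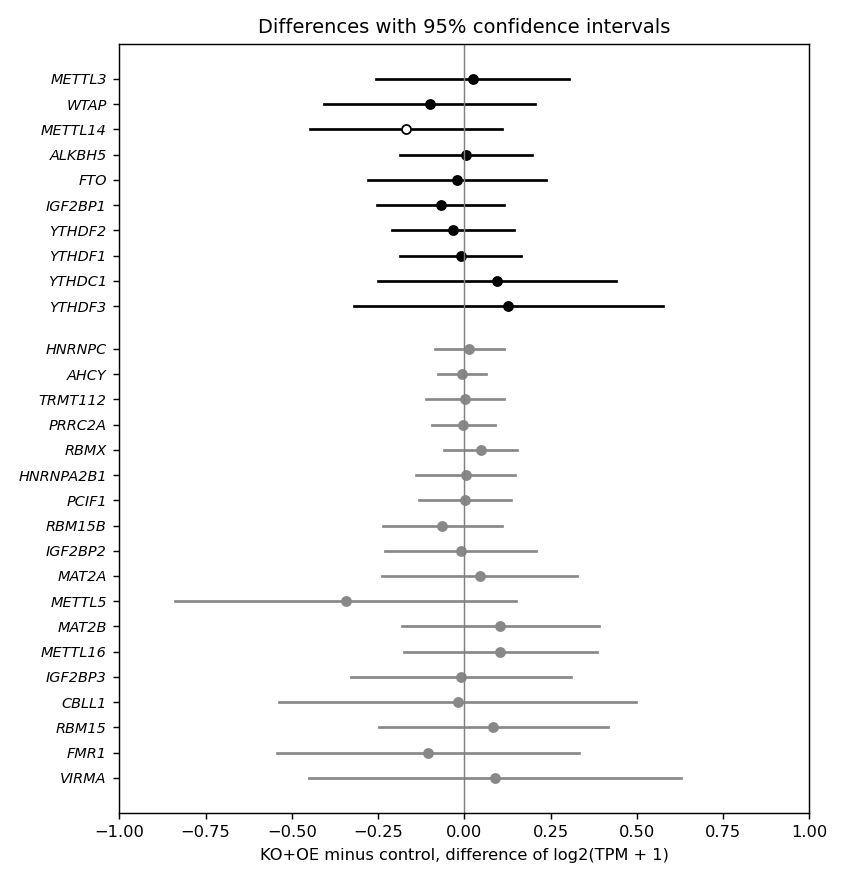
Difference of mean log2(TPM + 1), KO+OE minus control, with the 95% confidence interval from limma for the 10 members (black; METTL14, open circle, from the fit without a filter) and 18 other genes of the pathway (grey). Every interval crosses 0, and the widest is that of VIRMA, -0.45 to 0.63.

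The other genes of the pathway were taken from a list of 21, of which 18 were tested. None of the 18 passed an adjusted p of 0.05 in limma and 0 passed an unadjusted p of 0.05. Their median log2 difference was 0.0017, with 10 above and 8 below 0. The groups did not overlap for RBM15 (higher in KO+OE) and RBM15B (lower in KO+OE), 2 of 18. Over all genes tested, 34.1% did not overlap and 5.33% passed an unadjusted p of 0.05.

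The accessory subunits of the writer complex spanned a wide range of levels. VIRMA, the scaffold of the complex, was present at 0.81 and 1.32 TPM among control libraries, against 1.11 and 1.25 TPM among those of KO+OE. The groups overlapped, and the log2 difference was 0.09 (95% confidence interval -0.45 to 0.63). RBM15 and RBM15B, which bring the complex to U-rich RNA, had log2 differences of 0.08 and -0.06. RBM15B was the most abundant of the accessory genes at 21.72 to 23.66 TPM, and RBM15 was at 3.03 to 3.42 TPM. CBLL1, the ubiquitin ligase of the complex, was at 2.94 to 4.41 TPM, and ZC3H13, which retains it in the nucleus, was below the filter at 0.51 to 1.01 TPM.

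The other methyltransferases act on particular RNAs. METTL5, which with TRMT112 methylates ribosomal RNA, had the largest difference of the list. It was measured at 12.74 and 19.01 TPM for control and 11.35 and 12.81 TPM for KO+OE. Control replicate 2 alone stood apart, and the log2 difference of -0.34 (unadjusted p = 0.134, limma adjusted p = 0.937) became -0.07 without that library and -0.62 without control replicate 1 (unadjusted p = 0.00796, adjusted p = 0.774). METTL16, which methylates the mRNA of MAT2A, was at 8.44 to 10.30 TPM, and PCIF1, which marks the adenosine next to the cap, was at 58.14 to 62.01 TPM with a log2 difference of 0.0015. ZCCHC4, a ribosomal RNA methyltransferase below the filter, was present at 0.99 and 0.46 TPM among control libraries, against 1.21 and 1.02 TPM among those of KO+OE.

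Among further readers and enzymes of the methyl donor, HNRNPC, AHCY and MAT2A had groups that overlapped. HNRNPC, whose binding follows structure changes made by the mark, led the pathway at 716.81 to 766.67 TPM, with a log2 difference of 0.01 (95% confidence interval -0.09 to 0.11). AHCY, which clears the by-product of methylation, was at 566.48 to 578.34 TPM, and its interval of -0.08 to 0.06 was the narrowest of the list. MAT2A, which makes the methyl donor, was measured at 19.34 and 19.73 TPM for control and 22.38 and 18.19 TPM for KO+OE. YTHDC2, a germ-cell reader with a helicase domain, was at 0.24 to 0.83 TPM, far below YTHDC1.

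Level and base composition ran in parallel among the members. The Spearman correlation across the 10 genes between mean TPM and the GC content of the canonical transcript was 0.89, and 0.86 with the GC content of the coding sequence. METTL14 and YTHDF3, the lowest members, had transcripts of 38.3% GC, and YTHDC1 had 40.3%, whereas METTL3 had 49.9% and ALKBH5 57.6%. These points are genes measured in the same libraries and are not independent replicates. Across 10781 tested protein-coding genes the correlation with transcript GC content was 0.31, and across members and pathway genes together, 31 in all, it was 0.58. With coding GC content the respective values were 0.23 and 0.71. HNRNPC (40.2% GC) and HNRNPA2B1 (38.4% GC, 71.24 to 76.01 TPM) were high in spite of low GC content. Median level over the protein-coding genes tested rose from 3.23 TPM below 45% coding GC to 15.4 TPM between 55% and 60%, and was 13.0 TPM at 60% and above, the range that holds ALKBH5. The correlation of the members with transcript length was -0.40, and -0.33 over those protein-coding genes. The part of GC content and length in the listed levels was not tested. This limit holds for every comparison between genes made here, the METTL3 to METTL14 ratio included.

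**Figure D4:**
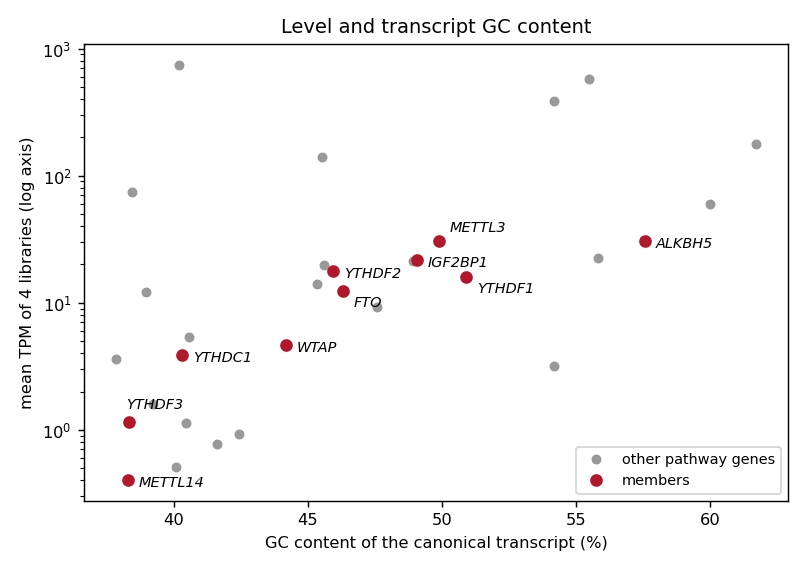
Mean TPM over 4 libraries (log axis) against the GC content of the canonical transcript in percent, for the 10 members (red, named) and 21 other pathway genes (grey). The members rise from METTL14 at 38.3% GC and 0.403 TPM to ALKBH5 at 57.6% GC and 30.5 TPM, while the grey points scatter more widely.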

How the data were processed

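RNA of 4 H9 libraries, 2 control and 2 KO+OE, was enriched for polyadenylated transcripts, fragmented, reverse transcribed and sequenced in pairs of 150 bases. Groups and replicate numbers came from the sample titles. The submitters' processing notes name HISAT2, featureCounts, Subread, DESeq2 and hg38 without versions or roles, and the annotation release is not given in the sources used here. The authors deposited 1 value per gene and library without naming a unit. These were taken as TPM because the deposited columns hold decimals and reach nearly one total, 1.29% to 1.32% short of the total that TPM would have. Values carry 2 decimals, no counts were given, depth is unknown, and a count model was not used. The table held 0 other columns with values of a sample.

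Values were analysed as log2(TPM + 1), which understates changes of low genes. Genes whose mean reached 1 TPM were compared with limma 3.58.1 in R 4.3.3 (lmFit, eBayes with a mean-dependent prior, group as only term, two-sided), with Benjamini-Hochberg adjustment over all 12319 genes. METTL14, below the filter, was read from the same fit without a filter. The step was first tested on simulated data of the 12319 genes, which do not include METTL14. In these data 200 genes were changed, which loosens the adjusted cut-off. Each library took the residual of an independently drawn gene of like level, so spread particular to a gene was not kept. Of 2-fold changes it recovered 82.9% in genes of at least 10 TPM and 4.76% in genes under 10 TPM. Of 4-fold changes it recovered 99.2% and 51.0%. The mean number of false calls was 2.2 and 1.4 in these settings, and 0.2 without any change. WTAP, YTHDC1 and YTHDF3 had means under 10 TPM, where most 2-fold changes would be missed.

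The members and gene lists were chosen with earlier results of these data known. Named are all members, NUDT21, pathway genes that set the range of levels or whose role is described, cell type markers, and rows carrying a member symbol with a suffix for antisense, divergent or pseudogene transcripts. TOX4 and SOD2 were picked with their values in view. GC content, length and exon overlap came from GENCODE release 44 lifted to GRCh37, matched by Ensembl identifier (98.6% of genes tested), and positions and promoters from RefSeq GRCh38.p14. Alternatives were another pseudocount (0.1 or 5), omission of the filter, a higher filter (5 TPM), median-ratio rescaling, quantile normalization, no mean-dependent prior, a replicate block and leaving out each library. Python 3.11.15, pandas 2.3.3, numpy 2.4.6, scipy 1.17.1 and matplotlib 3.10.9 were used.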

Additional observations from a re-analysis of the deposited data

How the results depend on the processing

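No member passed an adjusted p of 0.05 under any of the 12 alternatives. The lowest adjusted p of a member was 0.606, for METTL14 without control replicate 1, and the lowest unadjusted p was 0.0641, for METTL14 without the mean-dependent prior; alternatives for METTL14 were added after the data had been seen. Of 75 alternatives that kept all libraries, those with another filter, prior or block left every log2 difference unchanged by construction. Only the pseudocounts, median-ratio rescaling and quantile normalization could turn a sign. A sign turned in 2, both for YTHDF1 (0.0019 with median-ratio rescaling, 0.0038 with quantile normalization). The same settings moved the median of the members to 0.0019 and 0.0038, and quantile normalization moved that of the pathway genes to 0.020. These settings shift all genes: the median over all genes tested was -0.012 as reported, -0.00055 with median-ratio rescaling and 0.0010 with quantile normalization.

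With 1 library left out the lone library was assumed to vary like the other group. Over these 4 fits the log2 difference ran from -0.092 to 0.14 for METTL3, from -0.11 to 0.071 for FTO, from -0.075 to 0.087 for ALKBH5, from -0.0011 to 0.19 for YTHDC1 and from -0.012 (without control replicate 2) to 0.066 for NUDT21, while the other 6 members kept their sign. The median ran from -0.019 (without KO+OE replicate 1) to -0.0015 for the members and from -0.0057 to 0.031 for the pathway genes, and the number of pathway genes at an unadjusted p of 0.05 was 0 or 1, the 1 being METTL5 without control replicate 1.

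Libraries with a shared replicate number did not deviate together from their group means (correlation -0.0485 over 12319 genes), so the numbers give no pairing. With the replicate number as a block, 0 members and 0 pathway genes passed an adjusted p of 0.05, 0 members and 1 pathway gene (METTL5) passed an unadjusted p of 0.05, and the difference in the METTL3 to METTL14 ratio was not refitted. That difference ran from 0.59 to 0.66 without 1 library, where 3 arrangements allow no p under 0.333.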
